A study of Homo sapiens with 6 samples.

Results

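The 40 genes described here build the mitotic spindle, duplicate the centrosome or divide the cell. They were picked by name for these roles, with earlier results of these data known. Of the 40, 37 were measured, among 19775 genes on Affymetrix expression arrays, by probe sets whose platform annotation gives 1 gene symbol. The probe sets of CIT (2) and HAUS4 (1) carry several symbols, and no probe set carried the symbol CENPJ, so these 3 genes were not analysed here. Other names of CENPJ were not searched. RNA came from KOPTK1 cells, an established line of human T-cell acute lymphoblastic leukaemia, kept for 48 h with vehicle (n = 3 arrays) or with 1 µM PD0332991 (n = 3 arrays), an inhibitor of the kinases CDK4 and CDK6 also called palbociclib. The submitters describe biological triplicates of this 1 line, grown in serum-containing RPMI-1640 medium, and give no genetic change.

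Dividing cells copy their centrosome once per cycle: the kinase PLK4 with STIL, SASS6 and CEP152 starts a new centriole beside each old one, and a scaffold of PCNT, CEP192 and CDK5RAP2 gathers γ-tubulin ring complexes that seed microtubules. In mitosis the augmin complex (HAUS genes) and NEDD1 bring γ-tubulin to microtubules inside the spindle, while ASPM, NUMA1, TACC3 and CKAP5 shape and stabilise the poles and fibres. Separase (ESPL1), held back by securin (PTTG1), then releases the sister chromatids, and PRC1, ECT2, RACGAP1, ANLN and CEP55 set up the midzone, the contractile ring and the final cut. Many of these genes are known to be transcribed mainly in G2 and mitosis, and the DREAM and MYB-MuvB complexes bind CHR elements in such promoters. Others serve the interphase centrosome and are transcribed throughout the cycle.

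Intensities are linear probe set values on a scale set by the authors, and fold changes are differences of log2(intensity + 16), PD0332991 minus vehicle, tested with limma and called at a Benjamini-Hochberg adjusted p under 0.05 over all genes. The median intensity of an array was 49.1 to 54.3, and precision is limited by having 6 arrays. All 9 T cell markers measured (CD3D, CD3E, CD3G, CD2, CD5, CD7, CD1A, LCK and PTCRA) exceeded 100 on every array, with a summed intensity of 20608 to 22511 with vehicle and 25788 to 27080 with PD0332991. CD2 and CD1A were higher by 0.81 and 1.04 on the log2 scale. Markers of myeloid cells, epithelium and fibroblasts (7 genes) stayed at or below 88.3 on every array. The B cell marker MS4A1 lay between 35.6 and 55.4, whereas CD79A rose from 275 to 543 (log2 0.94, limma adjusted p = 0.0028). The erythroid marker HBB lay between 143 and 196. The part of these levels in the results was not tested.

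With PD0332991 the RNAs of this machinery were broadly lower: 33 of the 37 genes fell and 0 rose in limma, where 13.6% of all genes were called lower and 15.6% higher. Without adjustment (limma p under 0.05), 33 were lower and 1, TUBGCP2, was higher. The median log2 fold change of the 37 was −1.65, or 3.13-fold lower, against 0.01 for all genes. Of the 33, 17 fell at least 4-fold, a size reached by 0.753% of all genes, and 9 of these at least 8-fold. A further 6 fell between 2-fold and 4-fold and 10 by less than 2-fold. The 3 PD0332991 arrays lay below all 3 vehicle arrays for 33 genes, and this was so for 20.0% of all genes. In bulk RNA, fewer cells in mitosis and less RNA per cell cannot be told apart.

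**Figure D1:**
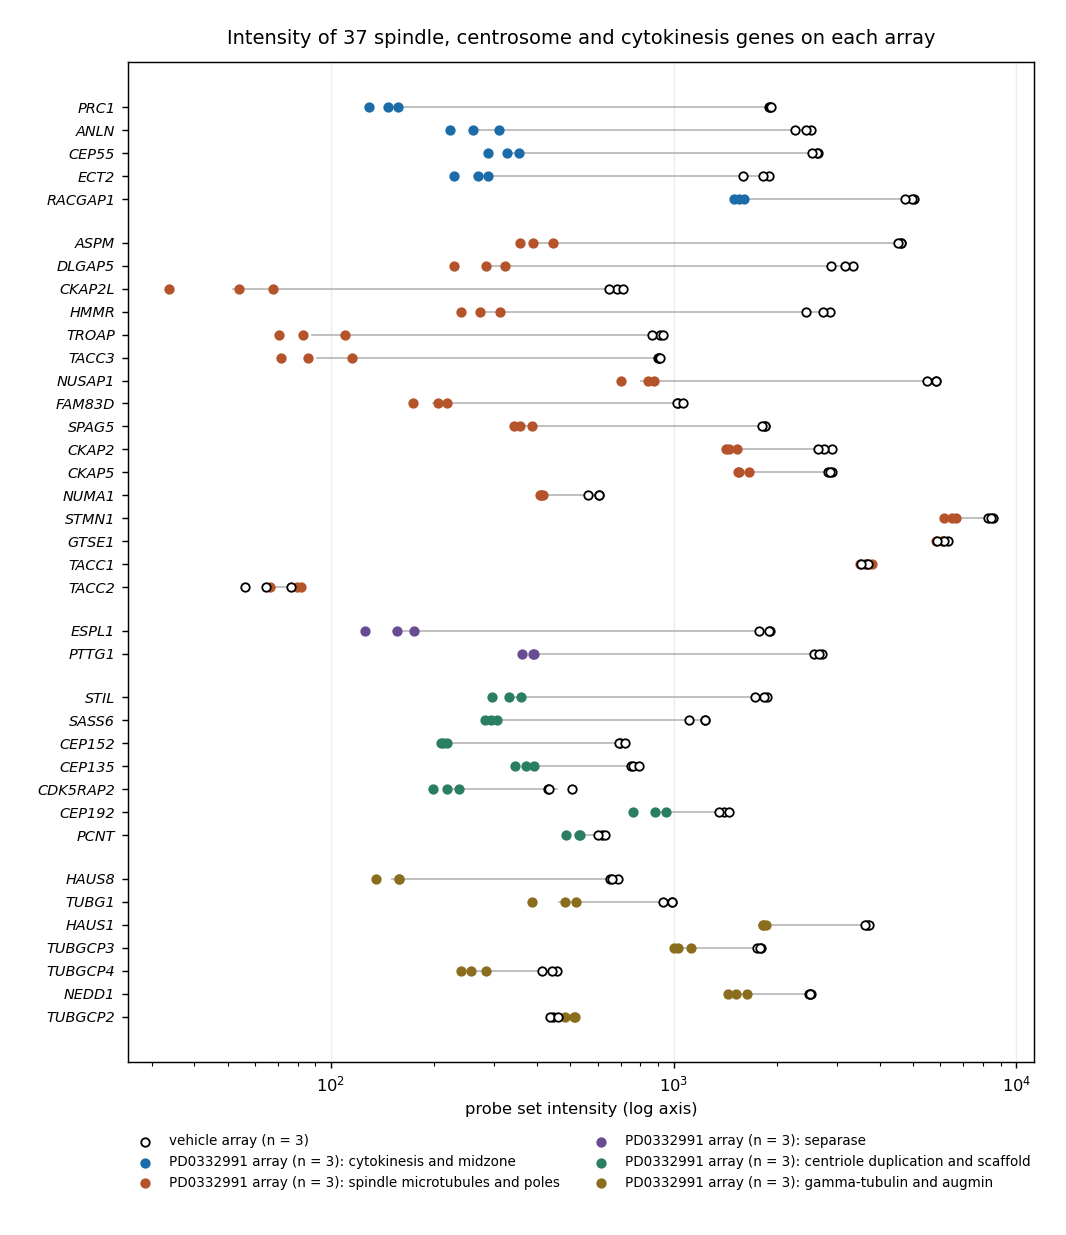
Probe set intensity (log axis) of the 37 genes on each of the 6 arrays, ordered by fold change within each role; open circles are vehicle arrays, filled circles PD0332991 arrays (n = 3 each), and grey lines join the group means. PRC1 dropped from 1914 to 144 while TACC1 stayed at 3625 and 3632.

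Median log2 fold changes were −3.12 for the separase pair, −2.95 for 5 cytokinesis and midzone genes and −2.30 for 16 genes of spindle microtubules and poles. They were −1.02 for 7 genes of centriole duplication and the pericentriolar scaffold and −0.75 for 7 γ-tubulin and augmin genes. The roles were assigned from general knowledge, and the difference between them was not tested. All measured members of the separase, cytokinesis and centriole groups fell, as did 13 of the 16 spindle genes and 6 of the 7 γ-tubulin and augmin genes.

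**Figure D2:**
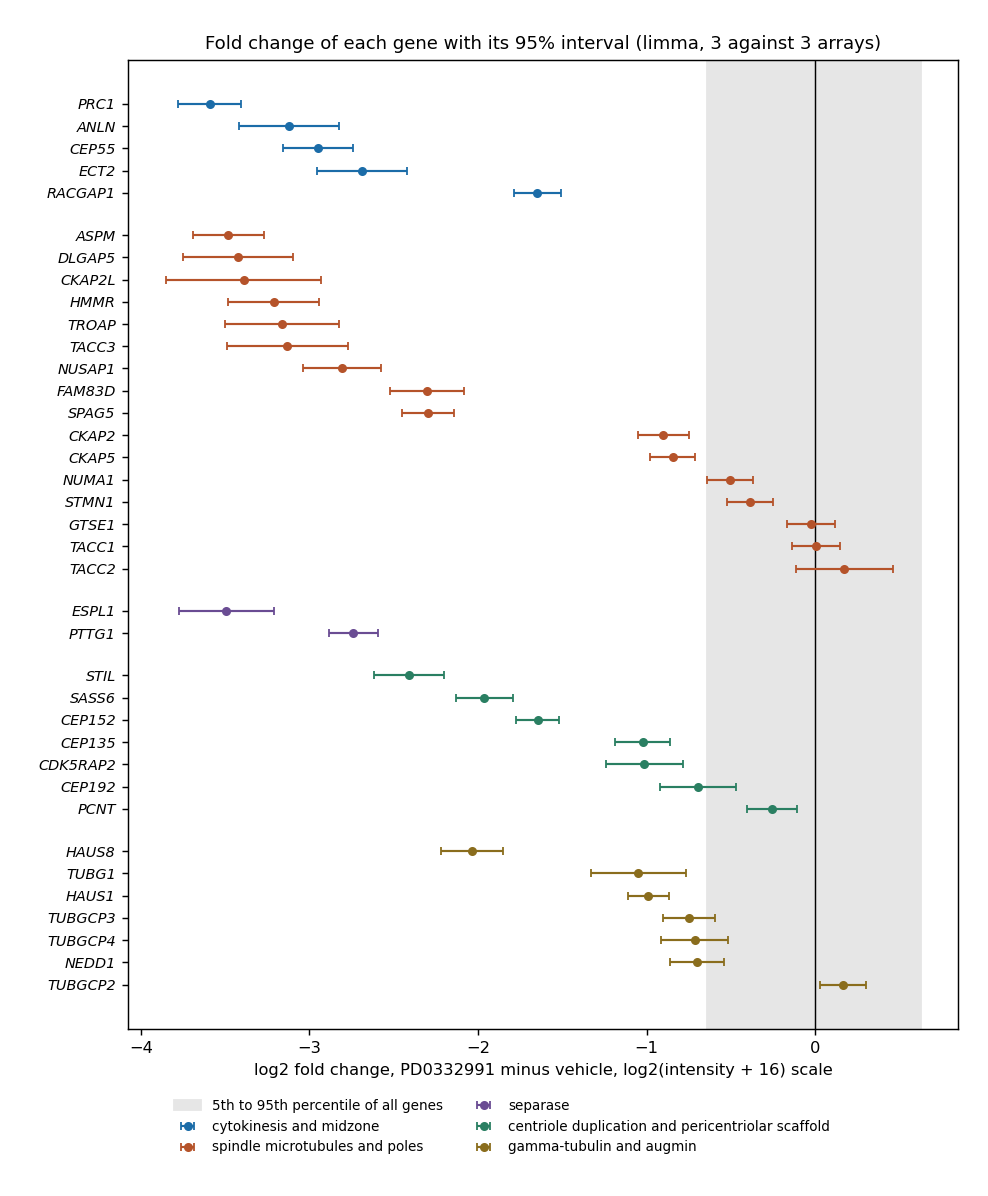
Log2 fold change of each gene on the log2(intensity + 16) scale with its 95% interval from limma (3 against 3 arrays), coloured by role; the grey band holds the 5th to 95th percentile of all genes, from −0.64 to 0.62. Cytokinesis, separase and most spindle genes lie far to the left, and the points of TACC1, TACC2, GTSE1, TUBGCP2, STMN1, NUMA1 and PCNT lie inside the band.

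The array labelled PD0332991 replicate 1 had the lowest intensity of its group for all 17 genes that fell at least 4-fold, and replicate 3 the highest for 16 of them. Among all 149 genes that fell at least 4-fold, replicate 1 was lowest for 131. Without this array 32 of the 37 genes were lower, PCNT having lost its call, and the median over the 37 ranged from −1.67 to −1.64 with any 1 array left out.

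Promoter sequence was available for 32 of the 37 genes, in 43 windows of 300 bases (250 before to 50 after the annotated start, RefSeq, GRCh38.p14); RACGAP1, TACC1, FAM83D, TROAP and TUBGCP4 have none here. Members that fell together were compared with those that fell less for letters of known cell cycle elements, searched on both strands. The CHR element TTTGAA was found in 13 of 18 windows (72.2%) of genes that fell at least 4-fold, in 5 of 18 (27.8%) of genes that fell by less and in 2 of 7 (28.6%) of genes not called, against 15.2% of all 35116 windows. By gene, it was present in 12 of 15, 5 of 14 and 2 of 3, and no share by gene was computed over all genes. TACC3, PTTG1 and STIL fell at least 4-fold without it, while CDK5RAP2, CEP135, CEP152, CEP192 and CKAP5 held it and fell by less. The 2 not called were GTSE1, with 3 of its 5 probe sets lower, and TACC2, which was dim. The CHR variant TTCGAA occurred in no window of the 43 and in 1.45% of all windows. CCAAT, the box bound by NF-Y, was in 66.7%, 44.4% and 42.9% of the windows of the same sets and in 34.6% of all. The E2F-type heptamers searched were TTCCCGC together with TTGGCGC and likewise TTCGCGC together with TTGCCGC. Counted as 1 kind, they were in 38.9%, 44.4% and 14.3%, and in 13.0% of all. The set that fell by less holds every called gene under 4-fold, from SASS6 at 3.90-fold to PCNT at 1.19-fold. The sets were formed from the fold changes, windows of 1 gene can overlap, and these shares are a description.

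The last 150 bases of the window are shown for the gene with the largest decrease among cytokinesis genes (PRC1), the separase gene (ESPL1), a pair of genes with 2 adjoining CHR matches (HMMR and ANLN), the only γ-tubulin or augmin gene that fell at least 4-fold (HAUS8), GTSE1, whose probe sets disagree, and 2 genes without the element that changed little (NUMA1 and TUBGCP2). They lie at chr15:90994486-90994635 (minus strand), chr12:53268199-53268348 (plus strand), chr5:163460532-163460681 (plus strand), chr7:36389762-36389911 (plus strand), chr19:17075403-17075552 (minus strand), chr22:46296770-46296919 (plus strand), chr11:72080493-72080642 (minus strand) and chr10:133308823-133308972 (minus strand). Not shown are TACC3, PTTG1 and STIL, which fell at least 4-fold without the element, and CKAP5, which fell by less with it. TACC2, not called and with the element in a window, is not shown either. A further window of TUBGCP2, at chr10:133312288-133312587 (minus strand), also lacked the element and is not shown. Each sequence runs 5′ to 3′ along the gene, and capitals mark CHR letters on either strand.
PRC1: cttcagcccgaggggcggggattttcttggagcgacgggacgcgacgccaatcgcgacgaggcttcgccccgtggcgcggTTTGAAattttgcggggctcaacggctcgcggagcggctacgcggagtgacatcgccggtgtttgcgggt
ESPL1: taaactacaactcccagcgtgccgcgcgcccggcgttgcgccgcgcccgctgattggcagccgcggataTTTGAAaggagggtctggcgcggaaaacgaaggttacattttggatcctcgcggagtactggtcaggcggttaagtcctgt
HMMR: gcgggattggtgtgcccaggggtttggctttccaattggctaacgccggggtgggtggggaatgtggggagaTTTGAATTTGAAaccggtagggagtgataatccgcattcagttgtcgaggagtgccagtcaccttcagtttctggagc
ANLN: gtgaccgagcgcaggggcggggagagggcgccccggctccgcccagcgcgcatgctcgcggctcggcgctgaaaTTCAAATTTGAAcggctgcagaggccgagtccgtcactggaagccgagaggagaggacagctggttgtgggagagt
HAUS8: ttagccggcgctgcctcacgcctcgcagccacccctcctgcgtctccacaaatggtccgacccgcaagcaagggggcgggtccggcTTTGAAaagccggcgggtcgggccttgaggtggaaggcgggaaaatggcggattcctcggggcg
GTSE1: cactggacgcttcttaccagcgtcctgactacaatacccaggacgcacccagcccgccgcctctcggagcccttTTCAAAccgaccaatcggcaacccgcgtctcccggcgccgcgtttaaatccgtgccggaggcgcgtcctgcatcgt
NUMA1: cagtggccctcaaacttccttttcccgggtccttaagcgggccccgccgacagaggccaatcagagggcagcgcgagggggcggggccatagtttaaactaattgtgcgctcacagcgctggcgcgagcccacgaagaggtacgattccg
TUBGCP2: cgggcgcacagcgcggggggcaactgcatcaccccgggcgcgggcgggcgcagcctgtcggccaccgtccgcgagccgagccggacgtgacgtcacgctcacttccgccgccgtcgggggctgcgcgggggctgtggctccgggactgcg

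In PRC1 the element began 20 bases before the annotated start and a CCAAT box 53 bases before it. ESPL1 had the same pair 31 and 48 bases before the start, the box being on the other strand. HMMR carried 2 copies of the CHR letters in direct succession, 28 and 22 bases before the start. In ANLN, at 26 and 20 bases before the start, 1 copy on each strand met the other end to end. HAUS8 held the element 14 bases before the start of 1 of its 2 windows, and GTSE1 on the other strand 26 bases before the start.

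**Figure D3:**
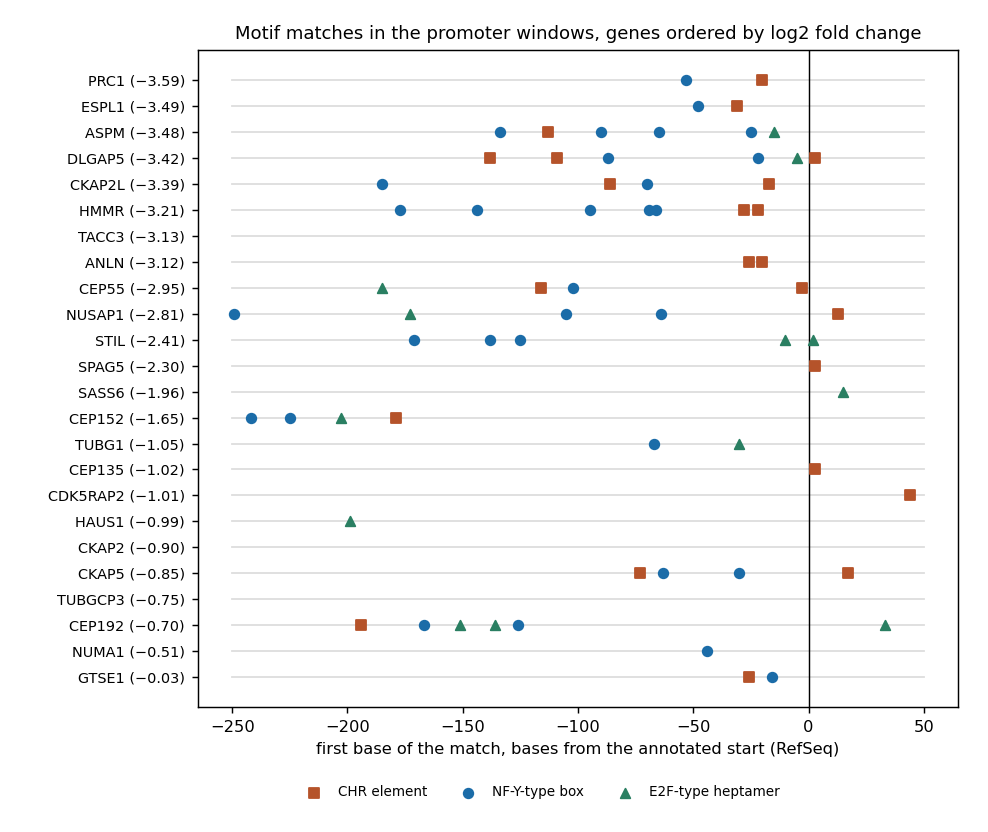
Positions of motif matches, as bases from the annotated start, in the promoter windows of the 24 genes with 1 window, ordered by log2 fold change (in brackets); squares are CHR elements, circles NF-Y-type CCAAT boxes and triangles E2F-type heptamers. Most of the upper rows hold a square, TACC3, CKAP2 and TUBGCP3 hold none of the 3 kinds, and SASS6 and HAUS1 have a triangle alone.

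Among genes of cytokinesis, PRC1, which bundles antiparallel microtubules of the midzone, fell most. Its intensity was 1899.6, 1915 and 1927 on the vehicle arrays and 129, 147 and 157 on the PD0332991 arrays, so log2 intensity fell by 3.59 (SE 0.08; adjusted p = 2.4e-05 in limma). The groups were far apart, 7.54% of the vehicle mean being left, and PRC1 had the fifth largest decrease of all genes.

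ANLN, which encodes anillin, the scaffold of the contractile ring, read 2521, 2431 and 2258 with vehicle and 223, 259 and 310.1 with PD0332991. It fell 8.70-fold (log2 fold change −3.12, SE 0.12, limma adjusted p = 3.1e-05), and its second probe set gave −3.08. CEP55, which brings the abscission machinery to the midbody, fell 7.73-fold, from 2595 ± 57.1 to 323 ± 34.1 (SD, n = 3 each).

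ECT2 and RACGAP1 act together: the RACGAP1 protein of the centralspindlin complex recruits ECT2, the exchange factor that switches on RhoA at the cell equator. ECT2 was at 1898, 1822 and 1591 with vehicle and at 228, 269 and 288 with PD0332991 (log2 −2.69, SE 0.11). Its 2 other probe sets gave −0.27 (adjusted p = 0.066 over all probe sets) and −0.37 (adjusted p = 0.038), the latter below 19 in intensity on every array, and the mean of the 3 probe sets gave −1.11. RACGAP1 went from 5009, 4948 and 4725 to 1501, 1552 and 1601, a log2 fold change of −1.65 (SE 0.06), the smallest decrease of the 5.

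Of the 16 spindle genes 13 fell. ASPM, a protein of the spindle poles, read 4597, 4594 and 4515 with vehicle and 356, 389 and 443 with PD0332991. The difference was −3.48 on the log2 scale (SE 0.09; adjusted p = 2.4e-05 in limma), and its 2 other probe sets gave −3.55 and −3.75. DLGAP5, also called HURP, which stabilises kinetochore fibres, went from 3343, 3156 and 2868 to 228, 284 and 323, lower by 10.7-fold (log2 −3.42, SE 0.13).

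HMMR, a hyaluronan-binding protein that also acts at spindle poles, fell 9.26-fold (log2 −3.21, SE 0.11) and TROAP, a microtubule-associated protein also called tastin, 8.96-fold (log2 −3.16, SE 0.14). NUSAP1, which bundles microtubules around chromosomes, read 5841, 5806 and 5498 with vehicle and 700.2, 841 and 876 with PD0332991 (log2 −2.81, SE 0.10). FAM83D, which places casein kinase 1 on the spindle, and SPAG5 (astrin), which steadies kinetochore attachments, fell 4.93-fold and 4.91-fold. All PD0332991 arrays lay below all vehicle arrays for each of these 5 genes, as they did for 20.0% of all genes.

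The TACC family, named for a coiled-coil domain that its members share, divided. TACC3, which joins clathrin and CKAP5 on kinetochore fibres, was at 903, 905 and 914 with vehicle and at 71.5, 85.6 and 115 with PD0332991 (log2 −3.13, SE 0.15; adjusted p = 5.8e-05 in limma). TACC1 was at 3657, 3695 and 3525 with vehicle and at 3789, 3622 and 3485 with PD0332991, so its groups overlapped and the log2 fold change was 0.00 (95% interval −0.14 to 0.14, adjusted p = 0.99). None of the 6 probe sets of TACC1 was called, with log2 fold changes from −0.30 to 0.00. TACC2 was dim, between 56.0 and 81.7 on all arrays, and gave 0.17 (95% interval −0.11 to 0.46). Taken within each array, log2 of TACC3 minus log2 of TACC1 changed from −1.98 ± 0.04 to −5.11 ± 0.36 (SD, n = 3 each), a difference of −3.13. This pair, and the pairs CKAP2L with CKAP5 and HAUS8 with HAUS1, were chosen with their fold changes known, so their differences are descriptions with no test.

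The 3 CKAP genes differed as well. CKAP2L, whose product is also called radmis and sits on spindle microtubules, read 682, 711 and 646 with vehicle and 33.8, 53.8 and 67.8 with PD0332991 (log2 −3.39, SE 0.19), or −2.69 with a pseudocount of 64. CKAP5 (ch-TOG), a microtubule polymerase used in interphase too, went from 2829, 2890.2 and 2866 to 1545, 1658 and 1554 (log2 −0.85, SE 0.06). CKAP2 went from 2889, 2746 and 2635 to 1453, 1424 and 1527 (log2 −0.90, SE 0.06), but a second probe set, at 267 with vehicle and 47.8 with PD0332991, gave −2.19 (adjusted p = 9.8e-04 over all probe sets). The dimmest, at most 9.04 in intensity, gave −0.35 and was not called (adjusted p = 0.058 over all probe sets). Taken within each array, CKAP2L minus CKAP5 changed by −2.54.

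STMN1 and NUMA1 showed small decreases. STMN1 encodes stathmin, a protein that destabilises microtubules and is switched off by phosphorylation as cells enter mitosis. Its intensity was 8532, 8261 and 8422 with vehicle and 6478, 6163 and 6641 with PD0332991 (log2 −0.39, SE 0.06; adjusted p = 0.0034 in limma). Its other probe set, between 42.8 and 59.6 on all arrays, was at −0.02. NUMA1, a large protein that anchors dynein at the poles and lies in the nucleus in interphase, read 607, 561 and 605 with vehicle and 415, 411 and 406 with PD0332991 (log2 −0.51, SE 0.06). Of its 4 other probe sets 3 were not called, and the last rose, from 54.7, 46.0 and 53.8 to 144, 125 and 132 (log2 1.15, adjusted p = 4.1e-04 over all probe sets). NUMA1 was the only one of the 37 with probe sets called in both directions. Averaging all 5 of them gave 0.06 (limma adjusted p = 0.65).

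GTSE1, which stabilises microtubules and is expressed in G2, gave differing answers by probe set, 3 of 5 being lower and 0 higher. The brightest, of the type with suffix _x_at, read 6327, 6133 and 5854 with vehicle and 6094, 5828 and 6060.4 with PD0332991, and its groups overlapped (log2 −0.03, adjusted p = 0.79). The next read 1358, 1304 and 1355 with vehicle and 115, 123 and 146 with PD0332991 (log2 −3.24, adjusted p = 4.0e-05 over all probe sets). A further pair gave −3.71 and −2.41, and the dimmest was below 3.2 on every array. The mean of the 5 probe sets gave −1.89 (adjusted p = 1.8e-05). The suffix _x_at marks probe sets with probes shared among different sequences, and which transcripts this probe set detects was not tested. GTSE1 is counted among the 4 genes not called because the brightest probe set stands for each gene.

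**Figure D4:**
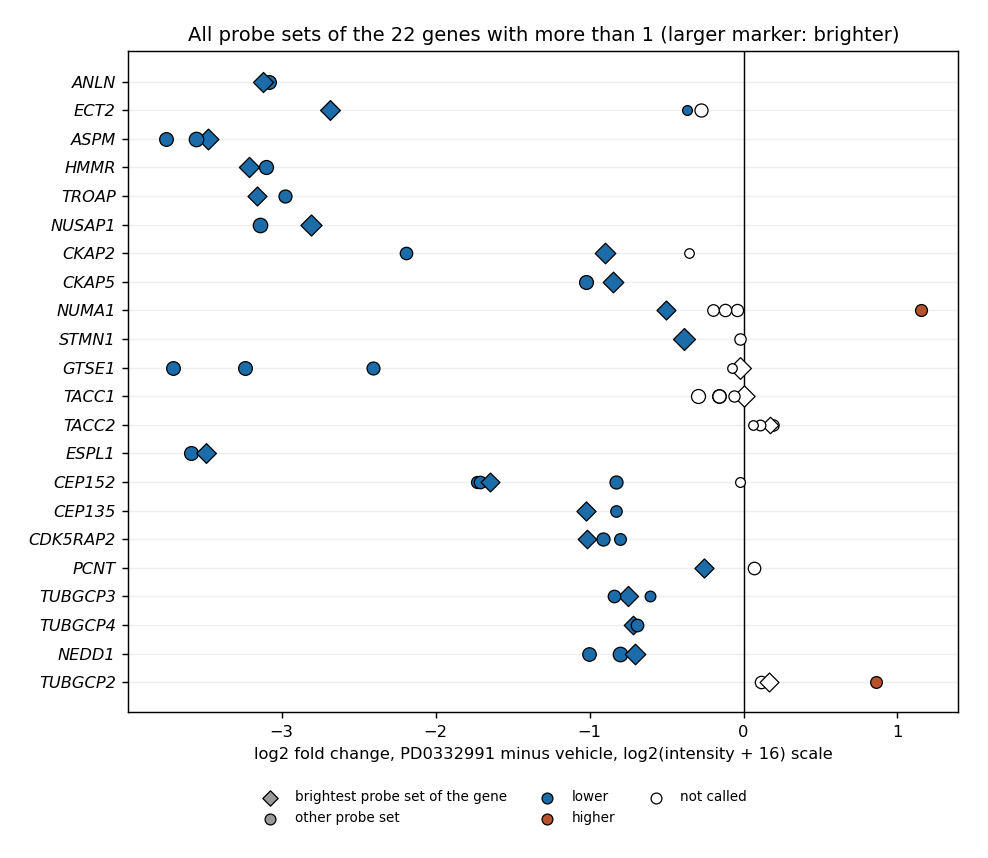
Log2 fold change of every probe set of the 22 genes that have more than 1, on the log2(intensity + 16) scale; diamonds are the brightest probe set of the gene, marker size grows with mean intensity, and fill shows the call over all probe sets. GTSE1 has 3 probe sets between −3.71 and −2.41 and 2 near 0, and NUMA1 and TUBGCP2 each have 1 that rose.

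Over all 81 probe sets of the 37 genes, 57 were lower, 2 higher and 22 not called, where 10.2% of all 54613 probe sets were lower. Of the 22 genes with more than 1 probe set, 12 had every probe set lower, 2 had none called and 8 had calls that differ. These 8 were ECT2, CKAP2, NUMA1, STMN1, GTSE1, CEP152, PCNT and TUBGCP2.

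Both genes of the separase pair fell. ESPL1, the protease that cuts cohesin, was at 1912, 1902 and 1775 with vehicle and at 126, 156 and 175 with PD0332991 (log2 −3.49, SE 0.12; adjusted p = 2.4e-05 in limma), and its second probe set gave −3.59. PTTG1, which encodes securin, its inhibitor and chaperone, was at 2710.0, 2562 and 2648 with vehicle and at 362, 389.9 and 392 with PD0332991 (log2 −2.74, SE 0.06). Its only probe set is of the type _x_at, so the level of PTTG1, and with it the median of the pair, may include related sequences and is uncertain. Of the vehicle mean, 8.16% of ESPL1 and 14.4% of PTTG1 was left.

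Among centriole genes, STIL, which binds PLK4 and brings in SASS6, read 1871, 1838 and 1724 with vehicle and 295, 331 and 359 with PD0332991 (log2 −2.41, SE 0.08; adjusted p = 2.5e-05 in limma). SASS6, the protein of the centriole's cartwheel, read 1231, 1237 and 1107 with vehicle and 294, 281 and 305 with PD0332991 (log2 −1.96, SE 0.07). CEP152, the receptor of PLK4 on the old centriole, read 697, 691 and 722 with vehicle and 213, 210.2 and 218 with PD0332991, 3.13-fold lower. Of its 4 other probe sets 3 were lower (log2 −1.73, −1.71 and −0.83), and the last, at most 14.6 in intensity, was at −0.02.

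CEP135, a centriole wall protein, fell 2.03-fold and CDK5RAP2, which activates γ-tubulin rings, 2.02-fold. CEP192, which recruits PLK4 and Aurora A, went from 1405, 1451 and 1358 to 949, 759 and 881 (log2 −0.70, SE 0.09). PCNT, or pericentrin, the large scaffold protein, had the smallest decrease of the group, from 619, 632 and 603 to 486, 532 and 529 (log2 −0.26, SE 0.06, limma adjusted p = 0.023). The PCNT call was lost with any 1 of 4 arrays left out (vehicle replicates 1 and 2 and PD0332991 replicates 1 and 3, adjusted p 0.051 to 0.086), and its other probe set gave 0.07.

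In the γ-tubulin and augmin group, HAUS8 had the largest decrease. HAUS8, the augmin subunit that binds microtubules, read 686, 651 and 662 with vehicle and 135, 158 and 158 with PD0332991 (log2 −2.04, SE 0.08; adjusted p = 2.8e-05 in limma). HAUS1, a subunit of the same complex, read 3671, 3717 and 3617 with vehicle and 1827, 1820.0 and 1866 with PD0332991 (log2 −0.99, SE 0.05). Taken within each array, HAUS8 minus HAUS1 changed by −1.05.

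TUBG1, which encodes γ-tubulin, was at 929, 986 and 989 with vehicle and at 385, 520.2 and 483 with PD0332991 (log2 −1.05, SE 0.12). NEDD1, which carries γ-tubulin rings to the spindle, fell 1.63-fold, and its 2 other probe sets were lower too. Among the ring subunits, TUBGCP3 fell 1.68-fold and TUBGCP4 1.64-fold, while TUBGCP2 was not called. It was at 445, 437 and 459 with vehicle and at 482, 515 and 512 with PD0332991. These groups did not overlap, and the log2 fold change of 0.16 (95% interval 0.03 to 0.30, limma adjusted p = 0.080) did not pass. The dimmest of its 3 probe sets was higher, from a mean of 50.6 to 102 (log2 0.86, adjusted p = 0.022 over all probe sets), and the gene passed as higher under 5 of the 17 alternatives.

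Genes of the same structures outside the 40 were measured too; 50% of the 68 fell. Of 19 other spindle genes measured (20 listed), 13 fell and 3 rose, with a median log2 fold change of −0.32, beside 13.6% of all genes lower and 15.6% higher. TPX2, which activates Aurora A, fell by 2.79 and PSRC1 by 2.61 on the log2 scale. MAP9, a microtubule-associated protein, rose by 0.88 and TUBGCP6, a further ring subunit, by 0.62.

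Of 29 other centriole and centrosome genes, 16 fell and 5 rose, with a median of −0.43. PLK4 fell from 1863 to 285 (log2 −2.64, SE 0.06), and POC1A, a centriole protein, fell by 2.04 on the log2 scale. OFD1, a protein of centrioles and cilia, rose by 0.64 and CEP70 by 0.52.

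Of 20 other genes of cytokinesis and abscission measured (21 listed), 5 fell and 4 rose, with a median of −0.05. The shares of these 3 lists that rose lie near the share of all genes. The formin gene DIAPH3 fell from 1149 to 134 (log2 −2.97, SE 0.13) and MYH10, a non-muscle myosin heavy chain, by 0.67 on the log2 scale, while SEPTIN6 and SEPTIN2 rose by 0.65 and 0.22. RHOA at −0.19 and MYH9 at 0.13 did not pass, and neither did 5 of the 7 measured ESCRT genes CHMP1A, CHMP2A, CHMP4B, CHMP6, VPS4A, VPS4B and TSG101, the other two, VPS4B and TSG101, being higher by 0.21 and 0.20. These lists were chosen by role with earlier results of the same data known.

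**Figure D5:**
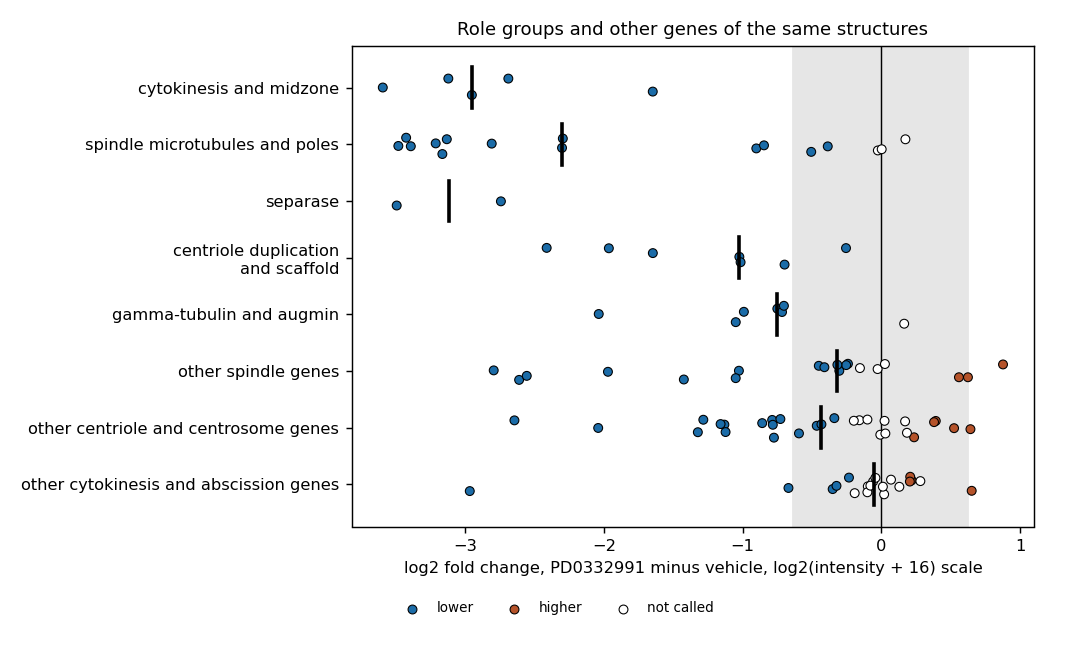
Log2 fold change of each measured gene, on the log2(intensity + 16) scale, in the 5 role groups and in 3 lists of other genes of the same structures; black bars are medians, fill shows the limma call, vertical scatter is for visibility, and the grey band holds the 5th to 95th percentile of all genes. Medians run from −3.12 for the separase pair to −0.05 for other cytokinesis and abscission genes.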

How the data were processed

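Values were deposited by the authors as linear probe set intensity, 54675 per array, already summarised and scaled to similar trimmed means (282 to 294, read from the values). The sources used here do not state how probes were summarised; detection calls, scan dates and batches were not used here. After such scaling a value is a level within its array, not an absolute amount. The 62 control probe sets were left out. Symbols came from the platform annotation, updated by gene ID through RefSeq (GRCh38.p14), and the probe set with the highest mean intensity over the 6 arrays stood for its gene, with no filter on dim genes. Groups were compared on log2(intensity + 16) with limma 3.58.1 in R 4.3.3 (lmFit, eBayes, two-sided, 4 residual degrees of freedom). Adjustment by Benjamini-Hochberg covered all 19775 genes, or all 54613 probe sets where stated. The pseudocount understates changes of dim genes.

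The 40 genes, the role groups, the other lists and the motifs were chosen with earlier results of these data known. Every measured member is named. Array values are given for the 2 largest changes of each role group, for bright members not called, for members whose probe sets disagree and for some others chosen after their values were seen. The 2 largest called changes in each direction are named for each other list. RHOA, MYH9, the ESCRT genes, TUBG2 and the HAUS genes outside the 40 were added after their values were seen. The fit was also run on data simulated from the means and spreads of these arrays. There 19575 of the 19775 genes were left unchanged. Of the changes put in, 23 of 50 of log2 −0.5 and 47 of 50 of log2 −1 were called lower. In the real arrays 2698 genes were called lower and 3088 higher, so the adjustment was less strict than in the simulation. Small changes can be missed, but the simulated shares do not give how often this happens here. Figures were drawn with matplotlib 3.10.9.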

Additional observations from a re-analysis of the deposited data

How the results depend on the processing

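Of the 33 genes called lower, 30 kept their direction and their call under each of the 17 alternatives that measured them, the exceptions being PCNT, STMN1 and NUMA1. Besides the arrays named above, PCNT lost its call with the replicate block (adjusted p = 0.064), median centring (0.053), the mean of probe sets (0.37) and at a threshold of 0.01. STMN1 was at −0.20 when its probe sets were averaged (adjusted p = 0.085) and at −0.02 without probe sets of the types _x_at and _s_at. NUMA1 was at −0.12 without these types (adjusted p = 0.28) and turned to 0.056 when averaged. With both types of probe set left out, ECT2 was at −0.37 on a dim probe set, 26 of 31 measured genes were lower, and 3 of 3 cytokinesis genes and 1 of 1 separase gene (−3.49) remained, with medians of −1.65 for centriole and scaffold genes and −0.87 for γ-tubulin and augmin genes. With fewer genes measured these counts are smaller in part by construction, and STMN1 and NUMA1 also lost their calls in this setting.

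The count of higher members, and of higher γ-tubulin and augmin genes, went from 0 to 1, TUBGCP2, with array weights (0.19), a restriction to brighter genes (0.16), averaged probe sets (0.38), a pseudocount of 64 (0.15) and quantile normalization (0.21), and the cause was not tested. Among brighter genes, which leaves TACC2 out, the median of the 36 members was −1.81. The mean of probe sets gave medians of −0.93 for centriole and scaffold genes and −0.84 for γ-tubulin and augmin genes. A pseudocount of 1 put the separase median at −3.20, and a pseudocount of 64 put the medians of cytokinesis, spindle, separase and centriole genes at −2.78, −2.12, −2.88 and −0.94. With 1 array left out, the medians ran from −3.02 to −2.87 for cytokinesis genes and from −3.17 to −3.04 for the separase pair, both nearest to 0 without PD0332991 replicate 1.

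The replicate numbers are shared by both groups, but are not stated to pair cultures. Deviations from the group means correlated at 0.0033, 0.076 and 0.083 between arrays of the same number, and vehicle replicate 1 correlated best with PD0332991 replicate 2 (0.022). With the replicate block, 32 members and 54 of their 81 probe sets were lower, against 33 and 57 without it.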

Other observations

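For the 17 genes that fell at least 4-fold, vehicle replicate 3 was the lowest vehicle array in 12, and it was so for 84 of the 149 such genes among all genes. PD0332991 replicate 3 was the highest of its group for 16 of the 17 and for 125 of the 149. The cause of this was not tested.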
